A study of Mus musculus with 5 samples.

Results

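The ADAMTS proteases examined here were 7 secreted enzymes of the extracellular matrix, Adamts1, Adamts2, Adamts4, Adamts5, Adamts8, Adamts9 and Adamts10, chosen by gene symbol. Probe sets annotated to 5 of them were present, 7 probe sets of the 22626 that were not controls, and 5 of these 7, standing for 4 genes, lay above the filter on low signals. Adamts2 and Adamts9 had no probe set in the annotation used and were not analysed here. The samples were aortas of male mice of the strain BKS.Cg-m +/+ Lepr db/J, 16 to 20 weeks old and fed regular chow. The tested animals were homozygous Lepr db/db mice, in which every tissue is without the long, signalling isoform of the leptin receptor and which develop obesity and diabetes, and the controls were heterozygous Lepr db/+ mice of the same colony, which carry 1 copy of the same mutation. Each Affymetrix array was hybridised with RNA pooled from 6 aortas stripped of adventitia and surrounding fat, and there were 3 db/db arrays (replicates 1, 2 and 3) and 2 db/+ arrays (replicates 2 and 3). Pools hide the spread between single mice, and leptin receptor loss, obesity and diabetes cannot be told apart in these groups.

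ADAMTS enzymes are zinc metalloproteases with thrombospondin type 1 repeats, made as proenzymes, trimmed by furin-like convertases and anchored in the matrix. Adamts1, Adamts4, Adamts5 and the related Adamts15 cleave the large hyaluronan-binding proteoglycans aggrecan and versican, and Adamts8 cleaves aggrecan. Versican fills the space between smooth muscle cells in the artery wall. Adamts2 removes the amino-terminal propeptide of fibrillar procollagens, Adamts9 cleaves versican, and Adamts10 binds fibrillin and acts in microfibril assembly. Timp3 is the best known tissue inhibitor of Adamts4 and Adamts5, and Adamts1 and Adamts8 are also known for restraining endothelial growth.

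The values were MAS5 signals, linear intensities of 1 probe set that the authors had scaled to the same mean on every array. Differences are log2 changes of signal + 16, db/db minus db/+, which understate the change of low signals. Each has its standard error (SE) from limma, and p was adjusted over all 13575 probe sets tested. Medians of the arrays lay between 58.9 and 61.4, correlations between arrays across probe sets between 0.952 and 0.977, and those of db/db replicate 1 with the others between 0.952 and 0.965. Lepr, the mutated gene, had 80.4, 91.2 and 71.9 in db/db and 71.5 and 59.2 in db/+ at its 1 probe set above the filter, which does not check the genotype because the db mutation alters splicing and which forms the probe set reads was not examined. Myh11, the heavy chain of smooth muscle myosin, had 3916, 3808 and 3590 in db/db and 3426 and 3367 in db/+, so smooth muscle RNA was plentiful in every pool. Several markers of fat, brown fat and fibroblasts were bright as well, although the aortas had been stripped. Over the 5 arrays Fabp4 averaged 4252, Adipoq 2076, Ucp1 3017 and Dcn 4356, at percentiles of signal from 98.6 to 99.8. Other markers listed for these cell types were dimmer, down to percentile 54.5 for Lep (fat), 59.4 for Elovl3 (brown fat) and 89.3 for Pdgfra (fibroblasts). In whole tissue, fewer cells of a type and less RNA per cell cannot be told apart.

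Adamts8 was the member with the widest gap between the genotypes. Its probe set (1418270_at) gave 104.3, 108.3 and 130.5 in db/db replicates 1, 2 and 3, against 45.2 and 60 in db/+ replicates 2 and 3. Every db/db pool lay above every db/+ pool, and the lowest db/db value was well clear of the highest db/+ value. The means were 114 ± 14.1 in db/db (SD, n = 3) and 52.6 ± 10.5 in db/+ (SD, n = 2). The log2 change was 0.93 (SE 0.18, 95% confidence interval 0.53 to 1.33), a 1.90-fold difference with an interval of 1.44 to 2.52. The unadjusted limma p was 0.00059, the 60th smallest of the 13575, and the limma adjusted p was 0.13, so Adamts8 did not pass the threshold of 0.05.

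Among the 5 member probe sets tested, 0 passed the adjusted threshold, where 0.081% of all probe sets did, and those 11 probe sets were lower in db/db. At an unadjusted limma p under 0.05 there was 1 member, Adamts8, against 8.13% of all probe sets in either direction and 3.98% in the higher direction. A log2 change of the size of that of Adamts8 or more, in either direction, was found at 0.788% of the probe sets tested. No overlap between the db/db and db/+ arrays was found at 3 member probe sets, 2 higher and 1 lower in db/db, against 25% of all probe sets in either direction, 13.1% higher and 11.9% lower. With 5 probe sets these counts describe the members and no more.

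**Figure D1:**
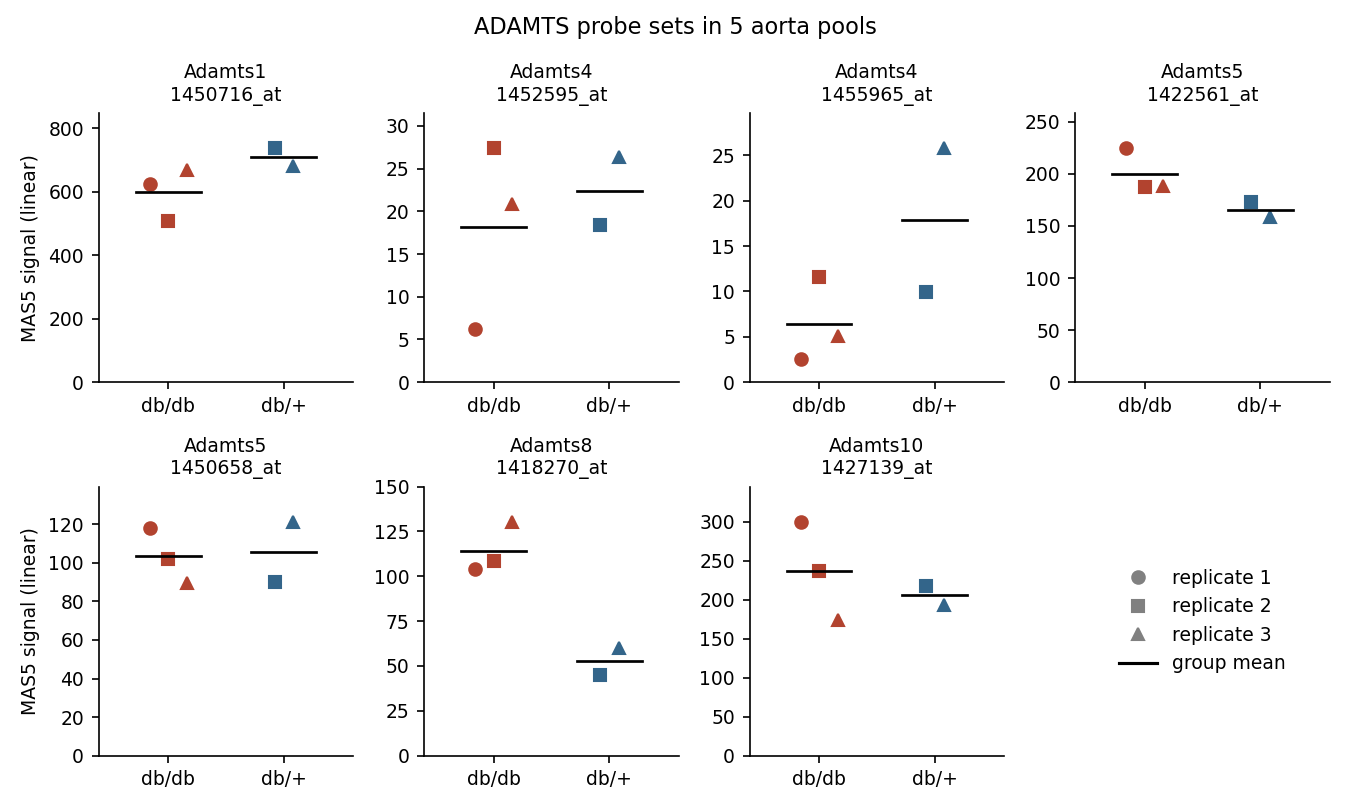
MAS5 signal (linear, y axis from 0 and different in each panel) of the 7 ADAMTS probe sets, with db/db pools at left and db/+ pools at right. Each point is 1 array and the line is the group mean; Adamts8 is the panel where db/db points, at 104.3 to 130.5, stand clear of db/+ points, at 45.2 and 60.

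Adamts1, an inducible protease of versican and aggrecan, had slightly lower signals in db/db. It had 623.6, 508.4 and 667.8 in db/db, against 737.2 and 681.0 in db/+. The genotypes did not overlap, but db/db replicate 3 and db/+ replicate 3 differed by little. The log2 change was −0.24 (SE 0.17, interval −0.64 to 0.15, limma adjusted p = 0.80), so the interval holds 0.

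Adamts5, a major aggrecan-cleaving protease in mouse cartilage that also cleaves versican, had a pair of probe sets. The first (1422561_at) gave 224.7, 186.9 and 188.0 in db/db, against 173.1 and 158.4 in db/+. These did not overlap, with a log2 change of 0.24 (SE 0.16, interval −0.12 to 0.61, limma adjusted p = 0.78). The second (1450658_at) gave 118.3, 102.0 and 89.8 in db/db, against 89.9 and 121.4 in db/+. Here the genotypes overlapped fully, and the log2 change was −0.02 (SE 0.19, interval −0.44 to 0.40, limma adjusted p = 0.99). Both probe sets were highest in db/db replicate 1 among the db/db pools, and for Adamts5 as a gene they gave no common direction between genotypes.

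Adamts10, the fibrillin-binding member, had 300.5, 236.8 and 174.6 in db/db, against 217.9 and 193.4 in db/+. The db/db pools spread to both sides of the db/+ pools, and their SD of 63.0 was larger than the 17.3 of the db/+ pools. The log2 change of 0.16 (SE 0.22, limma adjusted p = 0.90) rested on db/db replicate 1, without which it was −0.01.

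Adamts4, a protease of versican and aggrecan that inflammatory signals induce in many cells, was close to the bottom of the signal range. Its probe set 1452595_at gave 6.2, 27.4 and 20.9 in db/db, against 18.4 and 26.4 in db/+. The other, 1455965_at, gave 2.5, 11.6 and 5.1 in db/db, against 9.9 and 25.8 in db/+. All 10 values lay under the filter's level of 39.5, the groups overlapped at both probe sets, and neither was tested in the fit reported. Fitted with no filter, they had log2 changes of −0.22 and −0.58 (limma adjusted p = 0.92 and 0.74, unadjusted p = 0.49 and 0.069), so no difference in Adamts4 was detectable at this signal.

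**Figure D2:**
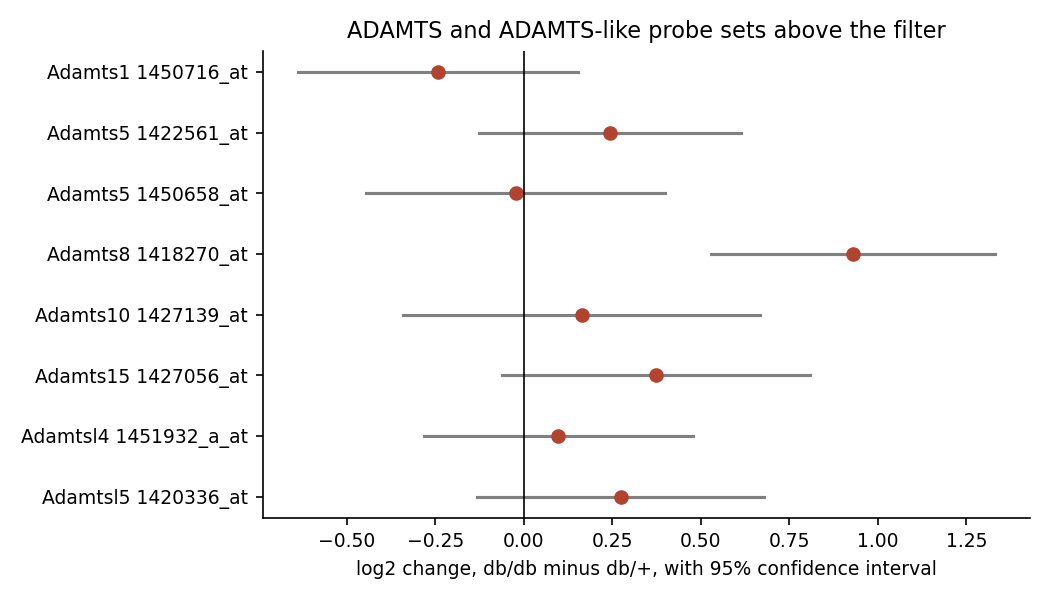
Log2 change of signal + 16, db/db minus db/+, with 95% confidence intervals from limma (x axis), for the 5 member probe sets above the filter and for Adamts15, Adamtsl4 and Adamtsl5 (y axis). The interval of Adamts8, 0.53 to 1.33, leaves out 0, and the other 7 intervals include it.

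Of 12 other ADAMTS proteases listed, Adamts15 and Adamts7 had a probe set, and 1 lay above the filter. Adamts15, the proteoglycan-cleaving enzyme closely related to Adamts8, had 173.5, 129.2 and 138.2 in db/db, against 93.7 and 126.2 in db/+. It was higher in all 3 db/db pools than in both db/+ pools, although db/db replicate 2 and db/+ replicate 3 almost met. The log2 change was 0.37 (SE 0.19, limma adjusted p = 0.67). Adamts7, which cleaves the matrix protein COMP and is known from arterial smooth muscle, had 5.3, 17.2 and 4.0 in db/db, against 27.1 and 14.7 in db/+, all under the filter.

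The ADAMTS-like proteins have the ancillary domains of the family but no protease domain. Adamtsl5 had a log2 change of 0.27 (limma adjusted p = 0.77), from 135.0, 110.4 and 100.8 in db/db against 83.5 and 101.3 in db/+, and Adamtsl4, a fibrillin-binding protein, had 0.10 (adjusted p = 0.92). Both overlapped between genotypes, and Papln, with signals of at most 3.1, was not tested.

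By gene order in RefSeq (GRCm38.p6), Adamts8 and Adamts15 are next to each other with 0 protein-coding genes between them, and so are Adamts1 and Adamts5. Adamts8 and Adamts15 both had higher signals in all db/db pools, as had 13.1% of all probe sets tested. Adamts1 and the brighter probe set of Adamts5 had log2 changes of opposite sign, −0.24 and 0.24. The 3 nearest genes above the filter on each side of Adamts8 and Adamts15 had log2 changes from −1.26 for Tmem45b to 0.22 for Jam3. Jam3 is a junctional adhesion molecule. Of these 6 genes, 3 were positive and 3 negative, with a median of −0.01. The 6 around Adamts1 and Adamts5 ran from −0.11 for Usp16 to 0.47 for Rwdd2b, with 4 positive, 2 negative and a median of 0.15. None of the 12 passed (smallest limma adjusted p = 0.25), and 2 had an unadjusted p under 0.05, where 8.13% of all probe sets did. These neighbourhoods were chosen after the values of the pairs had been seen.

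**Figure D3:**
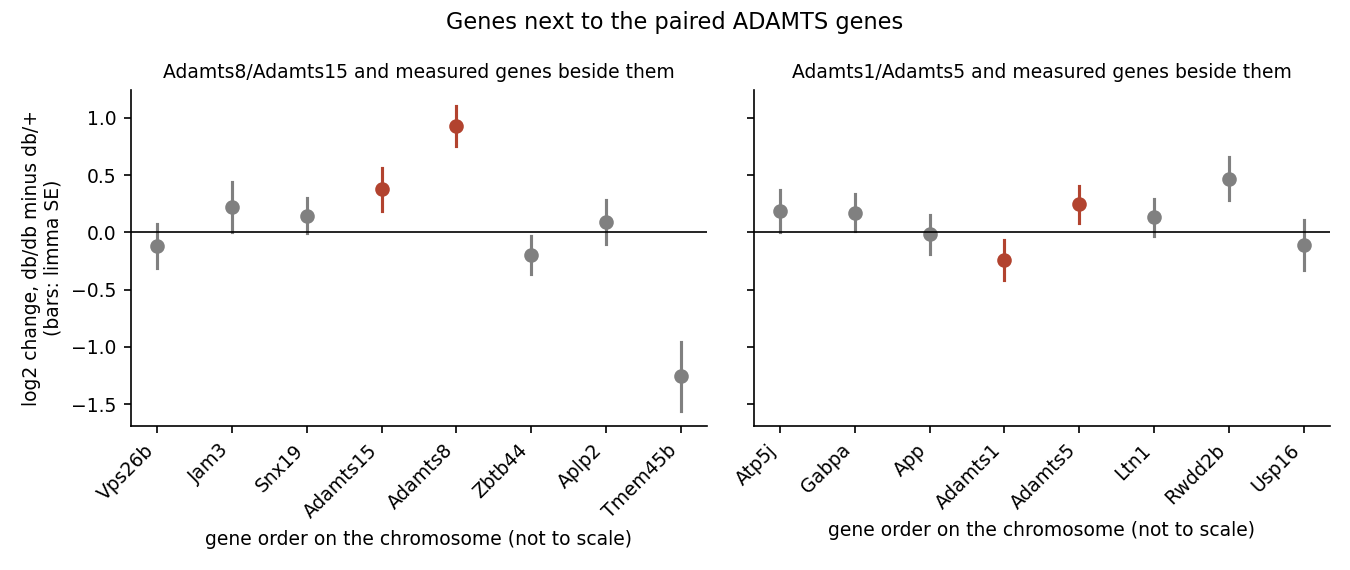
Log2 change, db/db minus db/+, with limma SE (y axis), of Adamts8 and Adamts15 (left) and of Adamts1 and Adamts5 (right). Each pair is shown with the 3 nearest genes above the filter on either side, in chromosome order (x axis, not to scale). The ADAMTS pair at left stands at 0.37 and 0.93 among neighbours from −1.26 to 0.22, and the pair at right at −0.24 and 0.24.

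The genes most like Adamts8 over the 5 arrays were found by the root mean square difference between log2 values, each gene centred on its own mean, among 8262 other genes. The closest was Iigp1, an interferon-induced GTPase, at a difference of 0.089, with 320.6, 343.3 and 400.8 in db/db, against 174.5 and 234.6 in db/+. Yars, the tyrosyl-tRNA synthetase, followed at 0.11 and Brd8, a bromodomain protein of a histone acetyltransferase complex, at 0.12. Their log2 changes were 0.76, 0.81 and 0.85, and limma adjusted p was between 0.16 and 0.26. All 3 were, like Adamts8, higher in every db/db pool than in both db/+ pools, against 13.1% of all probe sets. Both this and the size of their changes follow from choosing them by likeness to Adamts8, and are no separate evidence. The other members tested varied too little over the arrays, with a log2 SD under 0.3, for such a search.

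Among the substrates of the proteoglycan-cleaving members, versican and aggrecan had lower signals in db/db, and neither passed the threshold. Versican, Vcan, was read by 3 probe sets, and at each of them every db/db pool lay below every db/+ pool, against 11.9% of all probe sets. The 3 probe sets read the same gene in the same pools, so they are not independent. The brightest (1427256_at) had 466.7, 398.4 and 410.8 in db/db, against 618.1 and 558.7 in db/+. Its log2 change was −0.46 (SE 0.16, limma adjusted p = 0.48), and the others had −0.63 (1421694_a_at, adjusted p = 0.26) and −0.36 (1427257_at, adjusted p = 0.66). Aggrecan, Acan, the proteoglycan of cartilage that is also found in large arteries, had 103.2, 111.5 and 99.4 in db/db, against 166.6 and 236.9 in db/+. The db/db pools of Acan were close together and the db/+ pools far apart, and the log2 change was −0.83 (SE 0.18, limma adjusted p = 0.20).

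Vcan and Acan were the 2 negative members of a list of 12 proteoglycan substrates and hyaluronan partners. Of 10 with a probe set, 5 were tested, 0 passed, and 2, Vcan and Acan, had an unadjusted p under 0.05, against 4.15% of all probe sets lower. The median log2 change of the 5 was 0.09, beside 0.02 over all probe sets tested. The other 3 tested were positive: Ncan, the neural proteoglycan neurocan, had 0.36, Cd44, the hyaluronan receptor, 0.21, and the hyaluronan synthase Has1 0.09. Ncan and Cd44 were higher in all db/db pools, against 13.1% of all probe sets. The dimmer probe sets of Ncan and Cd44 overlapped between genotypes and lay under the filter. The link protein gene Hapln1 and the hyaluronan synthases Has2 and Has3 lay under the filter.

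Comp, the cartilage oligomeric matrix protein that Adamts7 cleaves, also had lower signals, with 143.4, 104.5 and 141.3 in db/db against 260.6 and 262.9 in db/+ (log2 change −0.94, SE 0.18, limma adjusted p = 0.13). Acan and Comp belong to a list of 6 chondrocyte markers, whose summed signal was 346 to 408 in db/db and 524 to 632 in db/+. That sum includes Acan and Comp themselves, and no other gene of the list was lower in db/db without overlap. Of this list 3 genes were tested, and Acan and Comp were lower without overlap, against 11.9% of all probe sets, while the collagen Col9a1 had 0.23. Sox9, the cartilage transcription factor, lay under the filter, with 35.0, 32.9 and 36.6 in db/db against 14.2 and 31.1 in db/+. The cartilage collagen Col2a1 was at 4.9 to 10.7 and Matn1 at 8.1 to 12.8 over all arrays, close to the bottom of the range, so these cartilage-defining transcripts were near 0 in both genotypes. No marker of the list was exactly 0.

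Among inhibitors, Timp4, a metalloprotease inhibitor of heart, fat and vessels, had the smallest p. It gave 190.0, 194.0 and 206.3 in db/db, against 403.8 and 428.9 in db/+ (1423405_at). The db/db pools were all under the lowest db/+ pool by a wide margin, with a log2 change of −1.02 (SE 0.15) and a limma adjusted p of 0.059, just outside the threshold. Its second probe set (1450974_at) had −0.61 (SE 0.19, adjusted p = 0.41), also without overlap. Timp4 passed under 4 of the 13 alternative settings, which were applied to it after its values had been seen. With both db/+ arrays kept, its limma adjusted p ran from 0.023 with a pseudocount of 64 to 0.17 with no filter.

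The other inhibitors differed less. Timp3 overlapped between genotypes at each of its 4 probe sets, and the brightest had 2972, 2772 and 2384 in db/db, against 2548 and 2055 in db/+ (log2 change 0.24, adjusted p = 0.81). Timp1 had −0.56 (adjusted p = 0.67), with db/+ replicate 3 at 523.0 and the other arrays between 206.7 and 251.5. Reck, a membrane-anchored inhibitor, had −0.11, and A2m was not tested. Over the 6 inhibitors, 5 were tested, 0 passed, and 1 was lower at an unadjusted p under 0.05, against 4.15% of all probe sets, with a median of −0.11.

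Thbs1, thrombospondin 1, carries the same type of repeat as the ADAMTS enzymes and restrains angiogenesis through the receptor Cd36. It had 69.7, 54.2 and 91.9 in db/db, against 245.7 and 164.9 in db/+ at its brighter probe set (1460302_at). Both probe sets were lower in every db/db pool, with log2 changes of −1.33 (SE 0.23, limma adjusted p = 0.096) and −1.08 (SE 0.22, adjusted p = 0.16). Cd36 had −0.60 and −0.78 at its brighter probe sets and 0.33 at the third, and Vegfa, the endothelial growth factor, had −0.56 at one probe set and 0.13 at another, so neither gene gave 1 direction. Of the 6 genes listed with angiogenesis, counted by their brightest probe sets, 0 passed and 1, Thbs1, was lower at an unadjusted p under 0.05, against 4.15% of all probe sets, and Thbs2 had −0.17. Dimmer probe sets of Cd36 (1450883_a_at, the one at −0.78) and of the VEGF receptor Flt1 (1454037_a_at, −0.50) were also lower at that level, with limma adjusted p of 0.46 and 0.57.

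**Figure D4:**
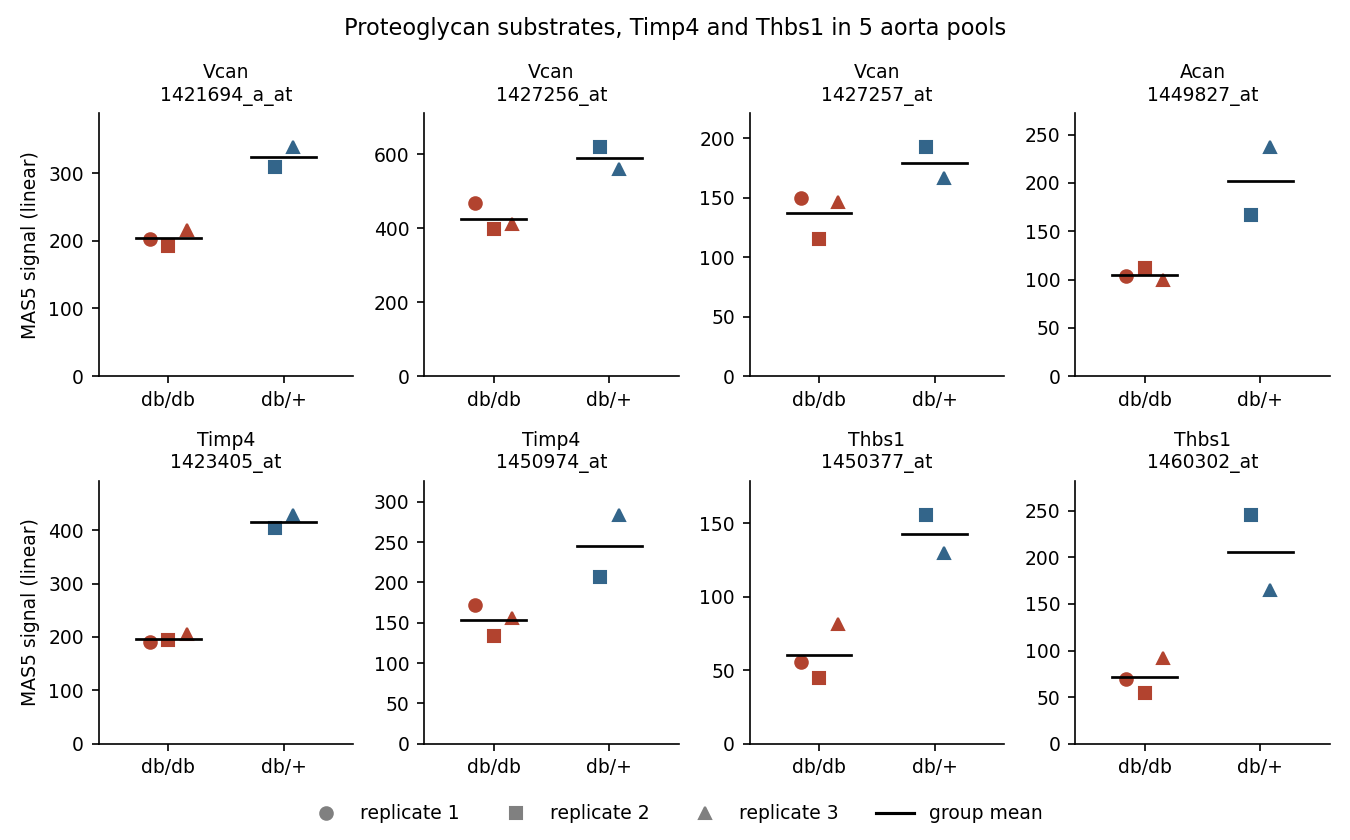
MAS5 signal (linear, y axis from 0 and different in each panel) of Vcan, Acan, Timp4 and Thbs1 probe sets, with db/db pools at left and db/+ pools at right; points are arrays and lines are group means. In all 8 panels every db/db point lies below every db/+ point. For Timp4 at 1423405_at these are 190.0 to 206.3 against 403.8 and 428.9. The genes shown were chosen with their values known, and 11.9% of all probe sets tested were lower without overlap.

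Among the matrix partners of Adamts2 and Adamts10 no gene passed. Of 8 procollagen genes and processing enzymes, 6 were tested and 0 passed or had an unadjusted p under 0.05, with 3 positive and 3 negative and a median of 0.00. The fibrillar collagens Col3a1 and Col1a2 had 0.15 and 0.13, the procollagen protease Bmp1 had −0.37, and Pcolce, which enhances it, had −0.30. Of 8 fibrillin microfibril genes, 6 were tested, 0 passed, and 1 in each direction had an unadjusted p under 0.05, against 3.98% of all probe sets higher and 4.15% lower, with 2 positive and 4 negative and a median of −0.12. These were the latent TGF-beta binding proteins Ltbp4 (log2 change 0.48, limma adjusted p = 0.47) and Ltbp2 (−0.59, adjusted p = 0.37), each without overlap, while Ltbp3 had −0.27 and the microfibril protein Mfap5 had 0.19, with −0.22 at its second probe set.

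The genes that activate, dock, clear or glycosylate ADAMTS enzymes showed no difference past the test. Of 9 listed, 8 were tested, 4 were positive and 4 negative, 0 had an unadjusted p under 0.05, and the median was 0.00. Furin, the convertase that trims the proenzymes, had 0.02. Mmp17, a membrane metalloprotease that activates Adamts4, had 0.24 and was higher in all db/db pools. Lrp1, the endocytic receptor that clears Adamts5, had −0.22, Pcsk6 had −0.20 and the syndecan Sdc4, which binds Adamts5, had −0.17.

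Among markers of smooth muscle, endothelium and macrophages 0 passed (smallest limma adjusted p = 0.67, 0.23 and 0.078). For non-overlap, the shares over all probe sets were 13.1% higher and 11.9% lower. The 8 smooth muscle markers summed to 23298 to 28292 in db/db and 21293 to 24017 in db/+, which overlap, and 3 of the 8 were higher without overlap, with 0 at an unadjusted p under 0.05. The 6 endothelial markers summed to 733 to 960 in db/db and 1183 to 1285 in db/+. Of the 6, 4 were lower without overlap, and the same 4 had an unadjusted limma p under 0.05, against 4.15% of all probe sets lower. The 7 macrophage markers summed to 2069 to 2461 in db/db and 3447 to 4550 in db/+. Of the 7, 6 were lower without overlap, and the same 6 had an unadjusted limma p under 0.05.

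Liver-type transcripts were the furthest apart, with 6 markers at 301 to 547 in db/db and 1410 to 1443 in db/+, and all 5 tested were lower without overlap, against 11.9% of all probe sets. Of these Alb and Bhmt passed the threshold, against 0.081% of all probe sets. The 4 measured mesothelial markers summed to 213 to 234 in db/db and 243 to 397 in db/+, although 1 of them was tested and Wt1 was at most 23.8 in any array. Fibroblast markers (8251 to 9443 in db/db, 8076 to 8553 in db/+), fat markers (5193 to 9013 in db/db, 8069 to 8653 in db/+), brown fat markers (5009 to 10072 in db/db, 6384 to 7321 in db/+) and cardiac markers (571 to 2718 in db/db, 1151 to 1495 in db/+) overlapped between genotypes in their sums. Within the fat list all 5 genes tested were negative, and 3 were lower without overlap. Lep, the leptin gene, passed, with a log2 change of −2.96 (limma adjusted p = 0.0073), while Lipe had −0.57 and Adipoq −0.44. In the brown fat list Elovl3, a fatty acid elongase, had 1.16 (adjusted p = 0.24) and was higher without overlap. The part of any of these cell types in the values of Adamts8, Vcan, Acan, Timp4 and Thbs1 was not tested.

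The log2 change of Adamts8 was positive under each of the 12 alternative settings that kept its probe set, from 0.61 with a pseudocount of 64 to 1.11 with a pseudocount of 1. The unadjusted limma p stayed under 0.05 in all 12, and the adjusted p ranged from 0.078 with array weights to 0.76 without db/+ replicate 2. Adamts8 passed in none of them. A filter at the 60th percentile of signal removed its probe set.

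**Figure D5:**
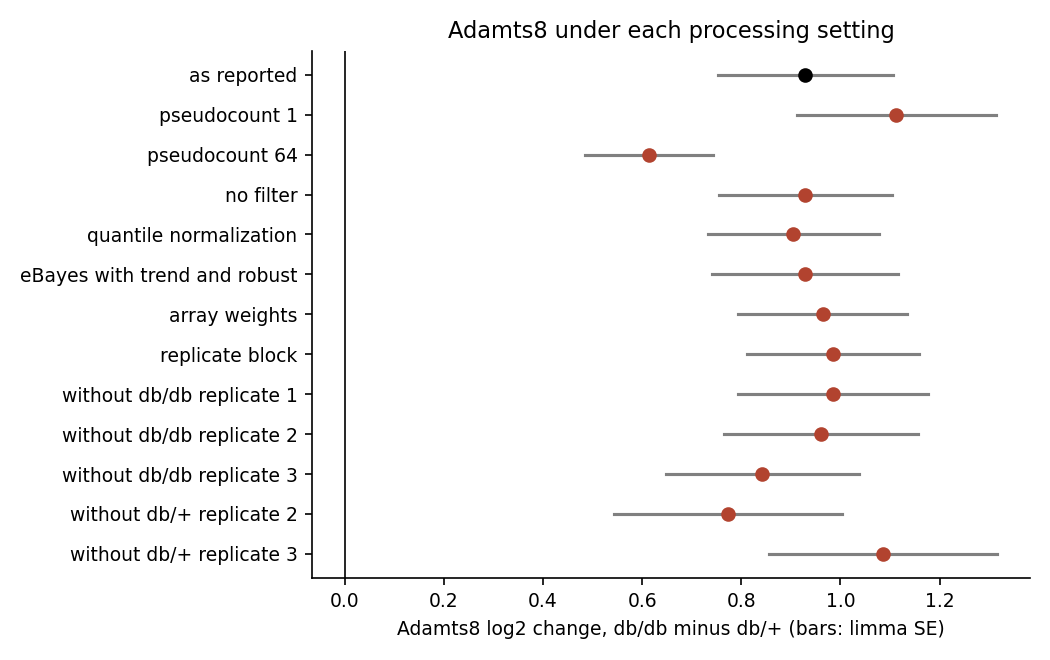
Log2 change of Adamts8, db/db minus db/+, with limma SE (x axis), as reported (black) and under 12 alternative settings (y axis). The values run from 0.61 to 1.11, all to the right of 0.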

How the data were processed

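The authors deposited 1 intensity per probe set and array, a linear signal; per the submitters' processing notes the tool was MAS5. Its version, the genome build and scanner settings are not given in the sources used here. Biotin-labelled cRNA came from 10 µg of RNA, per the labels. The 2% trimmed mean was 150.05 on every array, so the deposited intensity values were not normalized again. Of 22690 probe sets, 64 controls were left out. The platform annotation gave 1 symbol to 20380 of the remaining probe sets, several to 691 and none to 1555; Entrez identifiers matched 20351 to RefSeq (GRCm38.p6), with 0 symbols updated.

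Log2(signal + 16) values were fitted without covariates by limma 3.58.1 (lmFit, eBayes, two-sided; R 4.3.3) at the 13575 probe sets whose mean log2 value lay above the 40th percentile, with Benjamini-Hochberg adjustment. The test was tried on simulated data. A gene with several probe sets is represented by the one with the highest mean signal. The members, the 18 gene lists (8 pathway, 10 marker) and the tests were chosen with earlier results of these data known. The text names every member probe set, up to 4 genes of each list with the smallest p, other members where a list is described, Lepr, and the 3 genes nearest in pattern to each member with a log2 SD of at least 0.3. Alternatives were pseudocounts of 1 and 64, no filter, a 60th percentile filter, quantile normalization, eBayes with trend and robust, array weights, a replicate block and each array left out. The number of arrays limits the precision. Same-numbered pools deviated together with correlations of 0.11 and −0.0048 over probe sets.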

Additional observations from a re-analysis of the deposited data

How the results depend on the processing

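No setting brought a member probe set past the threshold (0 in all 13 alternatives, with 0 or 1 at an unadjusted limma p under 0.05), and Adamts8, Adamts1 and the brighter Adamts5 probe set kept their direction in each one that tested them. The change of Adamts10 turned to −0.012 without db/db replicate 1 and with the replicate block, in which db/db replicate 1 has no partner, and ran from −0.012 to 0.35 when single arrays were left out. The dimmer Adamts5 probe set ran from −0.21 without db/+ replicate 2 to 0.17 without db/+ replicate 3, and was 0.062 without db/db replicate 3. The number of all probe sets past the threshold, 11 as reported, was 1 with a pseudocount of 1, 35 with a pseudocount of 64, 1 with no filter, 22 with a 60th percentile filter, 39 with trend and robust, 48 with array weights and 20 with the replicate block. It was 0 to 28 with single arrays left out, the lowest without db/+ replicate 2 (761 at an unadjusted p under 0.05), 1 without db/+ replicate 3 and the highest without db/db replicate 1; the cause was not tested. Leaving out a db/+ array leaves 1, which is assumed to vary like db/db. With the replicate block Adamts8 had 0.98 (adjusted p = 0.12), and the block changed no member's call; the labels share numbers but not a stated batch. Timp4 passed with a pseudocount of 64 (adjusted p = 0.023), a 60th percentile filter (0.039), trend and robust (0.027) and array weights (0.031). Adamts15 ranged from 0.19 to 0.56, Acan from −1.07 to −0.60 and Vcan from −0.53 to −0.38. Thbs1 ranged from −1.60 to −0.98 and Timp4 from −1.08 to −0.88. The alternatives were applied to these genes after their values were seen. Signals near the bottom of the range, as for Adamts4 and Adamts7, limit what these arrays show.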
